A study of Mus musculus with 32 samples.

Results

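Apold1 and Prox1 are the 2 genes described here, chosen by symbol from 26305 genes that carry an Ensembl identifier in the deposited expression table. Apold1 stands for the blood vascular endothelium and Prox1 for the lymphatic endothelium. Both were picked with earlier results of these mice in view, and Apold1 in particular for its level in rosoxacin-treated lungs. All values of comparisons that include rosoxacin-treated mice are therefore a description, with no test.

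Lung RNA came from 16 male C57BL/6J mice of wild-type genotype, bought at 6 to 8 weeks of age and acclimatised for 1 to 2 weeks, in 4 groups of 4. The first group received World Trade Center particulate matter (WTCPM, dust of the collapsed towers) through the nose, together with rosoxacin, a quinolone antibiotic, at 5 mg/kg into the peritoneum. The second received the same dust and dexamethasone, a synthetic glucocorticoid, at 0.1 mg/kg by the same route. The third received the dust with no drug, and the fourth was a healthy control with neither dust nor drug. The sources used here give no dose of dust, no time from exposure to sampling and no vehicle for the undrugged mice. Each mouse was sequenced on 2 lanes, and a value below is the mean of both lanes in FPKM (a read level adjusted for transcript length and library depth).

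Apold1 (apolipoprotein L domain containing 1) encodes a membrane-associated protein of endothelial cells that is distantly related to the apolipoprotein L family. It is known as an early-response gene of the vasculature that is induced by hypoxia, ischemia and inflammatory cytokines, and it has been tied to vascular permeability and to endothelial cell junctions. Prox1 encodes a homeodomain transcription factor of the prospero family. It specifies lymphatic endothelial cells from embryonic veins and keeps their identity in the adult, where lymphatic vessels drain fluid and immune cells from the lung. Prox1 is also made outside lymphatic vessels, among others in hepatocytes, heart muscle, lens and neurons.

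In the mm10 build, as GENCODE M21 annotates it, Apold1 (ENSMUSG00000090698.2) lies on the plus strand of chromosome 6 from 134981718 to 134986836. It has 1 annotated transcript of 3567 bases in 2 exons, and no other annotated gene overlaps it. Prox1 (ENSMUSG00000010175.13) lies on the minus strand of chromosome 1 from 190118035 to 190170714, with 3 annotated transcripts of 3144, 3285 and 7913 bases, each of 5 exons. The table has 3 transcript rows for Prox1 and does not name them. In every mouse 1 of these rows held the whole value, and the other 2 were listed at 0. The antisense gene Prox1os shares 133 exonic bases with Prox1 and averaged 0.00323 FPKM over the 16 mice. The sources used here do not say whether counting used strand, so reads of this pair could be mixed.

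The endothelial label could be checked only in small part. Of 96 marker genes in 4 endothelial lists (vascular, capillary, arterial and venous, lymphatic), 3 have an identifier of their own in the table, the members and Nts. Nts, which encodes neurotensin and is listed as a lymphatic marker, stayed at or under 0.0835 FPKM in every mouse. Most of the RNA signal sits in assembled loci that carry no gene name, and only 0.114% of all FPKM is held by named Ensembl genes. Pecam1, Cdh5, Lyve1 and Flt4, which define these cell types, therefore have no value here, and the level of Apold1 or Prox1 cannot be set against the amount of endothelium in a sample.

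Total FPKM per mouse, over all loci and genes, ran from 924277 to 1329954 in rosoxacin mice, 763725 to 861652 in dexamethasone mice, 742168 to 803130 in WTCPM mice, and 704683 to 1099603 in control mice. The highest control total, 1099603, belonged to control 1. The lanes of a mouse correlated at 0.980 to 0.990 on the log2(FPKM + 1) scale. This was over the 17355 loci and genes averaging at least 1 FPKM, a set without Apold1 and Prox1. Between the lanes of a mouse, Apold1 differed up to 1.58-fold and Prox1 up to 1.97-fold. Each label also carries a library number, of unstated meaning, which runs from 1 to 4 in rosoxacin mice, 9 to 22 in dexamethasone mice, 5 to 17 in WTCPM mice and 7 to 23 in control mice. Among genes with 1 annotated transcript, the product of FPKM and transcript length took a most frequent value of 0.0715 to 0.115 in each library, which is taken as the worth of 1 counting step (a fragment or a mate, which the files do not tell apart). Counted in these steps over both lanes, Apold1 rested on 69.8 to 116 steps in rosoxacin mice, 47.8 to 87.8 in dexamethasone mice, 30.5 to 52.5 in WTCPM mice and 52.7 to 84.7 in control mice.

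Apold1 was highest in the lungs of rosoxacin-treated mice. The 4 mice given dust and rosoxacin had 1.58, 1.36, 1.07 and 1.17 FPKM. The 4 mice given dust and dexamethasone had 0.961, 0.767, 0.851 and 0.912 FPKM. The mice given dust alone had 0.438, 0.508, 0.783 and 0.683 FPKM, and the control mice 0.629, 0.710, 0.851 and 0.858 FPKM. All 4 rosoxacin mice lay above every other mouse, and the other 3 groups overlapped one another. In bulk lung, more endothelial cells, more Apold1 RNA per cell and Apold1 RNA of other cells cannot be told apart.

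Group means of Apold1 were 1.29 ± 0.223 in rosoxacin, 0.873 ± 0.0834 in dexamethasone, 0.603 ± 0.158 in WTCPM and 0.762 ± 0.112 FPKM in control mice (SD, n = 4 each). Ranked by mean, dexamethasone mice came after rosoxacin mice, control mice next and WTCPM mice last. Dexamethasone and control mice are neighbours in this ranking, and their ranges of 0.767 to 0.961 and 0.629 to 0.858 FPKM overlapped. The ranges of WTCPM and control mice overlapped as well. With a mean of 0.883 FPKM over the 16 mice, Apold1 was the 53rd highest of the 2749 Ensembl genes that averaged at least 0.1 FPKM and entered the fit, and 98.1% of these genes had a lower mean. Over all loci and genes it was not high, since 17355 of them averaged at least 1 FPKM.

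**Figure D1:**
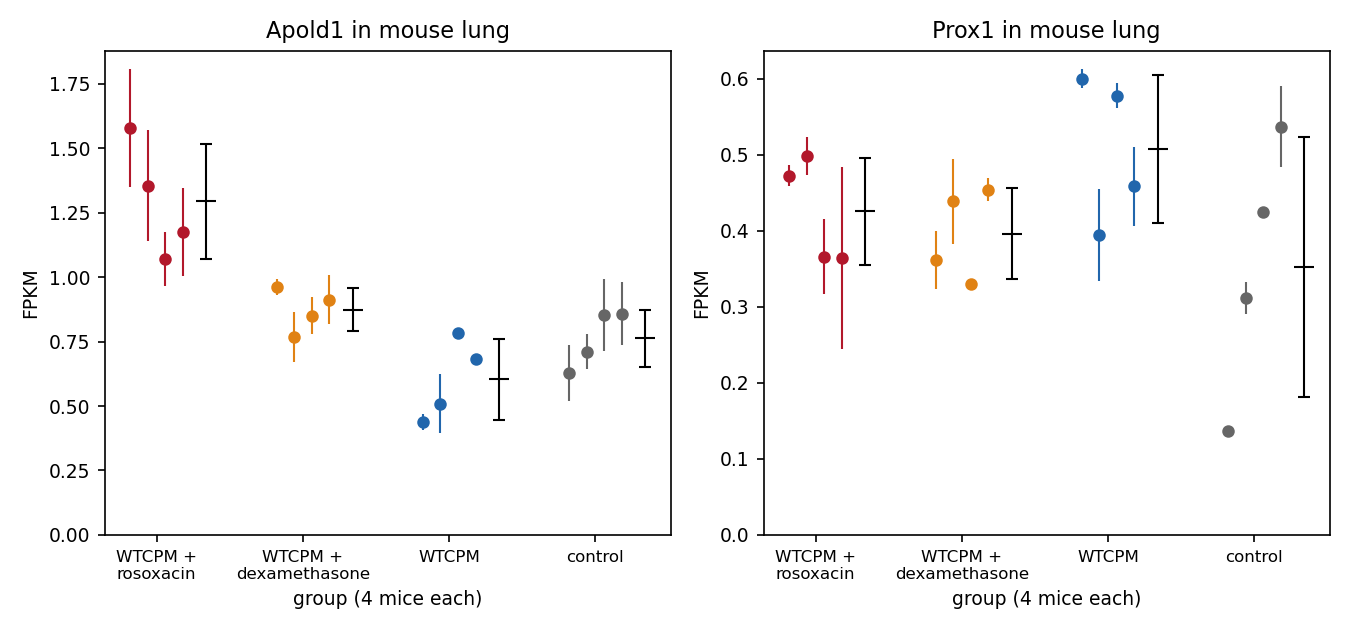
FPKM of Apold1 (left) and Prox1 (right) in each mouse, by group. Points are mice (mean of 2 lanes), vertical lines join the lanes of a mouse, and black bars give the group mean ± SD of 4 mice. The rosoxacin mice lie between 1.07 and 1.58 FPKM for Apold1, above all other mice, and the groups overlap for Prox1.

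Between rosoxacin-treated and dust-only lungs, mean Apold1 was 1.29 against 0.603 FPKM, a ratio of 2.15. On the log2(FPKM + 0.1) scale of the fit the difference was 1.00 (SE 0.18), larger than in 97.8% of the 2749 genes. In this comparison 0.546% of the genes passed limma's adjusted threshold of 0.05 in either direction. In 2.18% of the genes all 4 rosoxacin mice lay above all 4 WTCPM mice, as they did for Apold1, and in 8.95% all lay below. Nothing is read from these shares, since the gene was picked for this difference.

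Against the other groups the rosoxacin mice were also higher. Mean Apold1 was 1.29 FPKM in rosoxacin mice and 0.762 FPKM in control mice, a ratio of 1.70 and a log2 difference of 0.69 (SE 0.18). The rosoxacin mice lay wholly above the controls in 2.15% of the genes and wholly below in 9.02%, and 3.31% passed limma's threshold either way. Mean Apold1 was 1.29 FPKM in rosoxacin mice and 0.873 FPKM in dexamethasone mice, a ratio of 1.48. Here 3.46% of the genes had all rosoxacin mice above all dexamethasone mice, and 9.68% had all below.

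The size of the rosoxacin difference depended on how the libraries were scaled, and the total FPKM of these mice was high, as given above. As deposited, the median of all 2749 genes was lower by 0.16 on the log2 scale in rosoxacin than in WTCPM mice (median change -0.16) and Apold1 stood 1.16 above that median. With each mouse rescaled to the same total (TPM) the median was -0.44, the Apold1 difference 0.60 (SE 0.23) and the difference relative to the median 1.04. With median-of-ratios scaling the median was 0.03, the difference 1.26 (SE 0.19) and the relative difference 1.23. The sign was the same under these scalings, but the separation of the mice was not. In TPM the rosoxacin mice ranged from 1.02 to 1.47, the dexamethasone mice from 1.00 to 1.18, the WTCPM mice from 0.590 to 1.05 and the control mice from 0.572 to 1.22, so that all groups overlapped. After median-of-ratios scaling the rosoxacin mice, at 1.18 to 2.12, again lay above all others, of which the highest had 0.883.

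Rosoxacin mice hold the library numbers 1 to 4, below those of all other mice. With the library number as a covariate the log2 difference from WTCPM was 1.00, as without it. That fit extends a common slope to numbers that no other group holds. Group and library number therefore cannot be told apart here. Within the groups Apold1 followed the library number in different ways. Among WTCPM mice Apold1 was 0.438 FPKM at library 5, 0.683 at 10, 0.508 at 12 and 0.783 at 17, lowest at the lowest number. Among control mice it was 0.858 FPKM at library 7, 0.851 at 15, 0.710 at 21 and 0.629 at 23, lower at each higher number. Among dexamethasone mice it was 0.912 FPKM at library 9 and 0.767 to 0.961 at libraries 18 to 22. Itln1, the 1 gene of 8 on the mesothelial marker list that has its own identifier, ranged from 0.157 to 0.633 FPKM in rosoxacin mice, from 0 to 0.273 in dexamethasone mice and from 0 to 0.0584 in WTCPM mice, and was listed at 0 in control mice. Its part in the Apold1 difference was not tested.

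Dexamethasone-treated lungs had a higher mean Apold1 level than dust-only lungs, but the difference did not pass the test. Means were 0.873 ± 0.0834 in dexamethasone mice and 0.603 ± 0.158 FPKM in WTCPM mice (SD, n = 4 each), a ratio of 1.45. The log2 difference was 0.49 (95% interval 0.10 to 0.88, unadjusted p = 0.0159, adjusted p = 0.866 by limma). The WTCPM mice also entered the rosoxacin comparison for which Apold1 was picked. This interval and unadjusted p are therefore not independent of that choice. The same WTCPM mice enter the Apold1 comparison with control mice below. Over all tested genes 0% passed in this comparison, and 148 genes (5.38%) had an unadjusted p under 0.05. The lowest dexamethasone mouse, at 0.767 FPKM, lay below the highest WTCPM mouse, at 0.783. The other 3 dexamethasone mice lay above all WTCPM mice. Cxcr2, a neutrophil chemokine receptor and the 1 gene of 20 on the leukocyte list with its own identifier, ranged from 0.83 to 1.61 FPKM in dexamethasone mice and from 0.366 to 0.599 FPKM in WTCPM mice, without overlap. Wholly separate ranges occurred in 1.75% of the genes in that direction and in 2.33% in the other. In rosoxacin mice Cxcr2 ranged from 0.651 to 1.37 FPKM. Lep and Hcar1, the 2 of 11 adipocyte marker genes with an own identifier, summed to 0.231 to 0.488 FPKM in dexamethasone mice and 0.0953 to 0.137 FPKM in WTCPM mice, also without overlap. The part of these markers in the Apold1 differences was not tested.

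The difference in Apold1 between dust-only and control lungs did not pass the test. WTCPM mice averaged 0.603 ± 0.158 and control mice 0.762 ± 0.112 FPKM (SD, n = 4 each). The log2 difference was -0.31 (95% interval -0.70 to 0.08, adjusted p = 0.894 by limma), and 0% of the tested genes passed, with 141 genes (5.13%) at an unadjusted p under 0.05. The difference was -0.19 without WTCPM 1. Dexamethasone mice against control mice gave a log2 difference of 0.18 (95% interval -0.21 to 0.57, adjusted p = 0.997 by limma; 0.10 without control 1), in a comparison in which 1 gene (0.0364%) passed and 4.98% had an unadjusted p under 0.05. The ranges of both members overlapped there, while 1.35% of the genes were wholly higher in dexamethasone mice and 1.05% wholly lower.

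**Figure D2:**
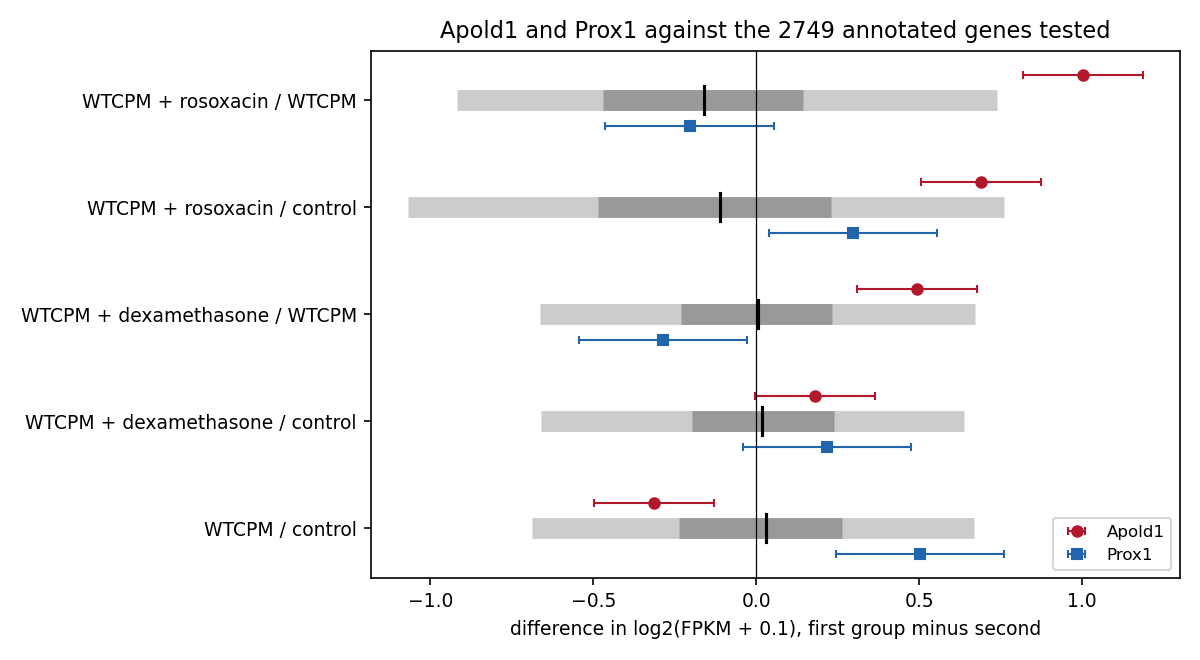
Differences of Apold1 (red circles) and Prox1 (blue squares) in log2(FPKM + 0.1) for 5 comparisons, first group minus second, with the standard error from limma. Grey bars span the 5th to 95th percentile of all tested genes, dark grey the middle quartiles and the black tick their median. Apold1 lies beyond the grey bar only for rosoxacin against WTCPM, at 1.00.

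Prox1 was lower than Apold1 in most mice and varied most among the controls. The rosoxacin mice had 0.473, 0.498, 0.366 and 0.364 FPKM. The dexamethasone mice had 0.362, 0.439, 0.330 and 0.454 FPKM. The WTCPM mice had 0.600, 0.394, 0.577 and 0.458 FPKM, and the control mice 0.137, 0.311, 0.424 and 0.537 FPKM. The lowest mouse of all was control 1, and the highest were WTCPM 1 and WTCPM 3. All groups overlapped.

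Group means of Prox1 were 0.425 ± 0.0703 in rosoxacin, 0.396 ± 0.0599 in dexamethasone, 0.508 ± 0.0977 in WTCPM and 0.352 ± 0.171 FPKM in control mice (SD, n = 4 each). WTCPM mice ranked highest by mean and control mice lowest, and all neighbours in the ranking overlapped. The mean over the 16 mice was 0.420 FPKM, which ranked Prox1 495th of the 2749 genes, with 82.0% of them lower. The 17355 loci and genes that averaged at least 1 FPKM all lay above Prox1. If all of its reads belonged to the longest annotated transcript, Prox1 rested on 52.9 to 77.3 steps in rosoxacin mice and 25.4 to 93.7 in control mice. If they belonged to the shortest, the highest numbers were 30.7 steps in a rosoxacin mouse and 37.2 in a control mouse, and the lowest was 10.1 in control 1.

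Between dust-only and control lungs Prox1 averaged 0.508 ± 0.0977 in WTCPM mice and 0.352 ± 0.171 FPKM in control mice (SD, n = 4 each), a ratio of 1.44. The log2 difference of 0.50 did not pass (95% interval -0.04 to 1.05, adjusted p = 0.894 by limma). The difference was 0.22 without control 1. Control 1 differed from the other controls in other ways too. The adipocyte markers Lep and Hcar1 summed to 0.127 to 0.530 FPKM in rosoxacin mice, 0.231 to 0.488 in dexamethasone mice, 0.0953 to 0.137 in WTCPM mice and 0.366 to 1.90 in control mice, with control 1 the highest of all. Control 1 also had the fewest loci or genes above 0.1 FPKM, 25048. The part of these in its Prox1 level was not tested. Hepatocytes also make Prox1. Hnf4a, the 1 gene of 9 on the hepatocyte list with an identifier, ranged from 0 to 0.142 FPKM in rosoxacin mice. It reached 0.0179 FPKM in dexamethasone mice and 0.0260 FPKM in control mice, and was listed at 0 in all WTCPM mice. Myh2, a skeletal muscle myosin and the 1 gene of 16 on the muscle list with an identifier, was 0.341 FPKM in dexamethasone 2 and 0.0261 FPKM in dexamethasone 3, and was listed at 0 in all other mice. Trp63, a basal cell factor and the 1 tested gene of 18 on the lung epithelial list, averaged 0.112 ± 0.0557 in WTCPM and 0.234 ± 0.155 FPKM in control mice (SD, n = 4 each), with overlap.

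In the control group Prox1 was higher in mice with lower library numbers, at 0.537 FPKM for library 7, 0.424 for library 15, 0.311 for library 21 and 0.137 for library 23. With the library number as a covariate the difference between WTCPM and control mice was 0.26 (adjusted p = 0.999 by limma, with 0.629 to 0.999 over all alternatives). Among dexamethasone mice Prox1 was 0.454 FPKM at library 9, 0.439 at 18, 0.330 at 19 and 0.362 at 22. Among WTCPM mice it was 0.600 FPKM at library 5, 0.458 at 10, 0.394 at 12 and 0.577 at 17. The dexamethasone mice thus followed the order of the controls except for the last pair, and the WTCPM mice except for library 17. The rosoxacin mice had 0.364 FPKM at library 1, 0.473 at 2, 0.498 at 3 and 0.366 at 4, which did not follow that order. All of them lay below the mice at library 5 and library 7. The covariate fit extends its common slope to these numbers, which no other group holds. The part of the library number in the Prox1 differences was not tested beyond the covariate.

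Prox1 overlapped between each drug group and dust alone. Dexamethasone mice averaged 0.396 and WTCPM mice 0.508 FPKM, a log2 difference of -0.29 (95% interval -0.83 to 0.26, adjusted p = 0.950 by limma). With the library number as a covariate this difference was -0.026 (adjusted p = 0.997 by limma, with 0.843 to 1 over all alternatives). Dexamethasone mice against control mice, at 0.396 and 0.352 FPKM, gave a difference of 0.22 (95% interval -0.33 to 0.76, adjusted p = 0.997 by limma), which was -0.065 without control 1. Rosoxacin mice averaged 0.425 and WTCPM mice 0.508 FPKM, a difference of -0.20 (SE 0.26) as deposited, -0.59 in TPM and 0.03 after median-of-ratios scaling, so the sign depended on the scaling, and -0.57 with the library number as a covariate. Relative to the median of the Ensembl genes tested under each scaling these were -0.05 as deposited, -0.15 in TPM and 0.00 after median-of-ratios scaling. With the library number as a covariate the relative difference was -0.37. Against control mice the rosoxacin difference of 0.30 (SE 0.26) was close to 0 in TPM, at -0.00, and 0.51 after median-of-ratios scaling. It was 0.017 without control 1, and -0.31 with the library number as a covariate.

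**Figure D3:**
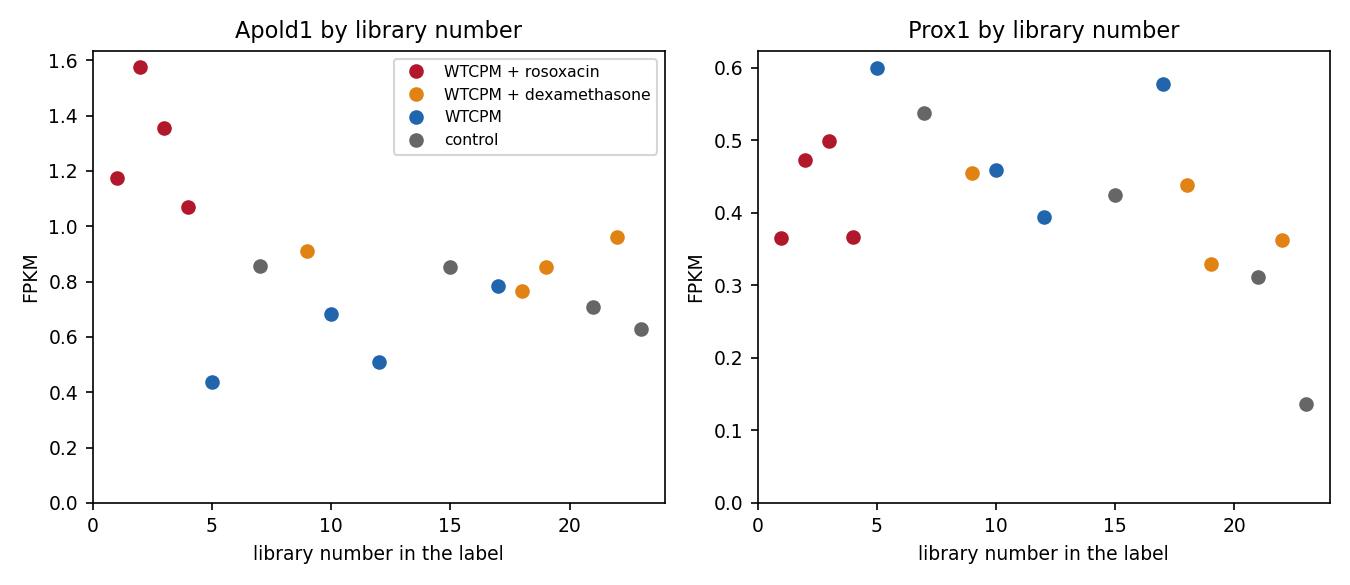
FPKM of Apold1 (left) and Prox1 (right) against the library number in the label, 1 point for each of the 16 mice, coloured by group. Rosoxacin mice hold numbers 1 to 4, and among control mice Prox1 runs from 0.537 FPKM at library 7 to 0.137 FPKM at library 23.

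The ratio of Apold1 to Prox1 within a mouse is free of the scaling of its library, since both values share it. This ratio was 3.34, 2.72, 2.92 and 3.22 in rosoxacin mice, 2.65, 1.75, 2.58 and 2.01 in dexamethasone mice, 0.729, 1.29, 1.36 and 1.49 in WTCPM mice, and 4.61, 2.28, 2.01 and 1.60 in control mice. Every drug-treated mouse lay above every dust-only mouse, and so did every control mouse. The sum of the adipocyte markers Lep and Hcar1 was likewise higher in every dexamethasone and control mouse than in every WTCPM mouse, while the lowest rosoxacin mouse, at 0.127 FPKM, lay below the highest WTCPM mouse, at 0.137, and its part in the ratio was not tested. The group means were 3.05 ± 0.282 for rosoxacin, 2.25 ± 0.441 for dexamethasone, 1.22 ± 0.335 for WTCPM and 2.62 ± 1.35 for control (SD, n = 4 each). Rosoxacin mice lay above all dexamethasone mice as well, while control mice spanned both, with control 1 the highest of all. WTCPM 1 was the only mouse with less Apold1 than Prox1. The ratio was formed after the values of both genes were known, so it is given without a test. It also contains the Apold1 values of rosoxacin mice for which the gene was picked. How often other pairs of genes separate as fully is not known here, so nothing is read from the separation.

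**Figure D4:**
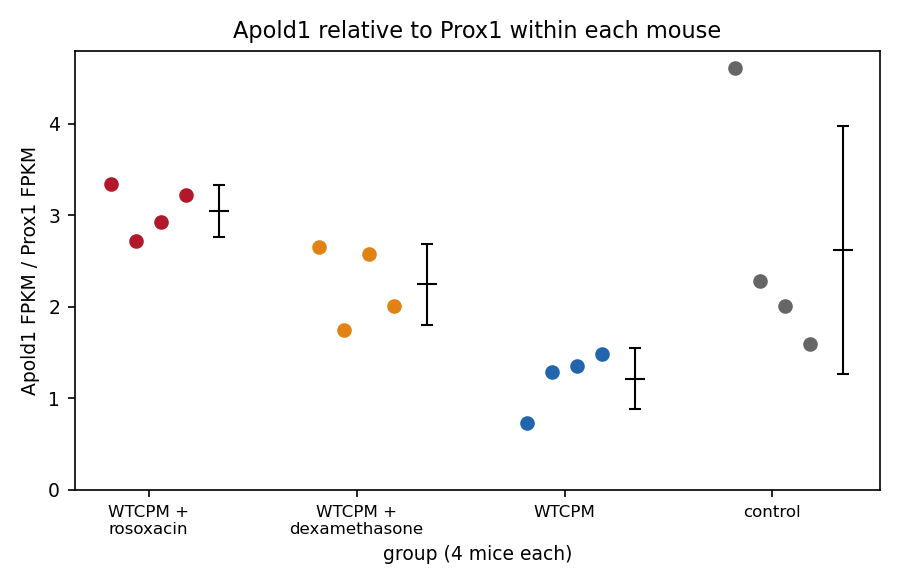
Apold1 FPKM divided by Prox1 FPKM within each mouse, by group. Points are mice and black bars the group mean ± SD of 4 mice. The WTCPM mice, at 0.729 to 1.49, lie below all mice of the other groups. The share of gene pairs that separate in this way is not known.

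Few related genes could be set beside the pair. Of 22 transcription factors of endothelium on the list, Foxc1 was the only one tested besides Prox1. Foxc1, a forkhead factor of vascular and lymphatic development, averaged 0.414 ± 0.156 in rosoxacin, 0.488 ± 0.0380 in dexamethasone, 0.566 ± 0.0785 in WTCPM and 0.509 ± 0.117 FPKM in control mice (SD, n = 4 each). It did not pass in WTCPM against control mice (log2 difference 0.14, adjusted p = 0.936 by limma) or in dexamethasone against WTCPM mice (-0.18, adjusted p = 0.953 by limma). Of 27 ligands and receptors of the VEGF, angiopoietin and apelin systems, Angpt4, a ligand of the endothelial receptor Tie2, was the only one tested. It averaged 0.356 ± 0.0742 in rosoxacin, 0.286 ± 0.0492 in dexamethasone, 0.308 ± 0.149 in WTCPM and 0.351 ± 0.0589 FPKM in control mice, with ranges that overlapped in all groups.

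Apold1 belongs to the early-response genes, of which 3 of 40 were tested, and 0 passed in WTCPM against control or in dexamethasone against WTCPM mice. The other two were Arc and Rgs1. Arc, an activity-regulated cytoskeletal gene, averaged 0.254 ± 0.0879 in rosoxacin and 0.212 ± 0.100 FPKM in WTCPM mice. Rgs1, a regulator of G protein signalling in leukocytes, averaged 0.499 ± 0.0953 in rosoxacin, 0.729 ± 0.282 in dexamethasone, 0.880 ± 0.284 in WTCPM and 0.418 ± 0.146 FPKM in control mice (SD, n = 4 each). All 4 WTCPM mice lay above all 4 control mice for Rgs1, as they did for 1.86% of the genes. Its log2 difference of 0.92 did not pass (adjusted p = 0.356 by limma). All 4 rosoxacin mice, at 0.424 to 0.638 FPKM, lay below all 4 WTCPM mice, at 0.645 to 1.29 FPKM, a separation that 8.95% of the genes had in that direction. Egln3, a prolyl hydroxylase that is induced by hypoxia, was the only tested gene of 23 on the hypoxia and glucocorticoid list, and averaged 0.329 ± 0.0803 in dexamethasone and 0.478 ± 0.0921 FPKM in WTCPM mice (log2 difference -0.44, adjusted p = 0.950 by limma).

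In the apolipoprotein L family, 6 of 14 genes were tested, Apold1 included, and 0 passed in WTCPM against control or in dexamethasone against WTCPM mice. The medians of the 6 were 0.28 for rosoxacin against WTCPM, 0.24 for dexamethasone against WTCPM and -0.05 for WTCPM against control, beside -0.16, 0.00 and 0.03 over all tested genes. The first of these medians contains the Apold1 difference for which the gene was picked, and the 3 comparisons share the WTCPM mice. Apol11b averaged 0.712 ± 0.105 in dexamethasone, 0.362 ± 0.122 in WTCPM and 0.678 ± 0.0849 FPKM in control mice (SD, n = 4 each). All 4 dexamethasone mice lay above all 4 WTCPM mice (log2 difference 0.84, adjusted p = 0.866 by limma), a direction shared by 1.75% of the genes, and all 4 WTCPM mice lay below all 4 control mice (-0.78, adjusted p = 0.894 by limma), shared by 1.16%. In rosoxacin mice Apol11b ran from 0.0887 to 1.03 FPKM. Apol9a averaged 0.383 ± 0.0512 in rosoxacin, 0.474 ± 0.250 in dexamethasone, 0.526 ± 0.148 in WTCPM and 0.522 ± 0.158 FPKM in control mice, with overlap between all groups. The Apol genes have near-identical neighbours among which the counting could have split reads, so their values are uncertain.

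**Figure D5:**
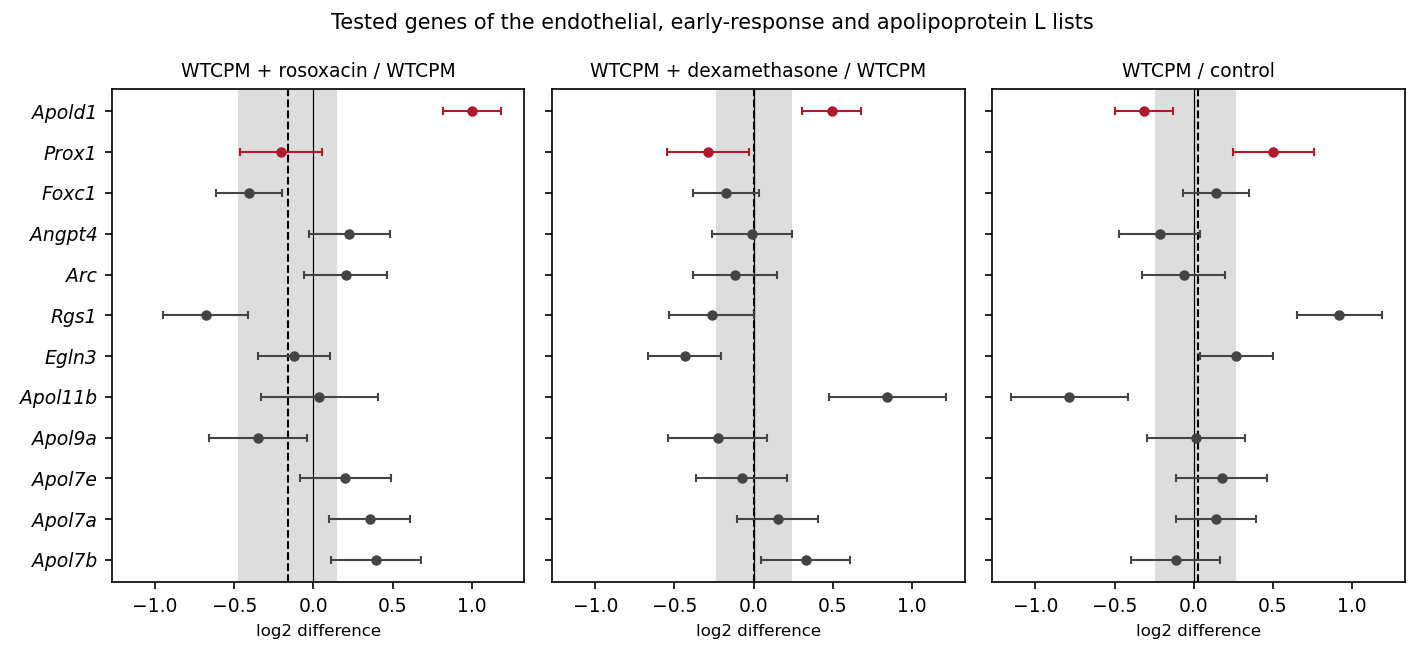
Differences in log2(FPKM + 0.1) with standard errors from limma for 12 tested genes of the lists, for rosoxacin against WTCPM, dexamethasone against WTCPM and WTCPM against control mice. The grey band spans the middle quartiles of all tested genes and the dashed line their median, at -0.16, 0.00 and 0.03. Apold1 and Prox1 are red. Apold1, at 1.00 for rosoxacin, was picked for this difference. Of the tested list genes not drawn, Itln1 (2.08) and Lep (1.25) had larger differences there, and Cxcr2, Hcar1 and Trp63 smaller ones.

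Over the 16 mice Apold1 and Prox1 did not run together, with a Pearson r of 0.10 between them on the log2(FPKM + 0.1) scale. The genes whose levels ran most like Apold1, among 978 tested genes with a name that is not a provisional one, were Efnb3 (r = 0.74), Sstr1 (0.70), Acnat1 (0.69), Cyp46a1 (0.69) and Ucn2 (0.67). Efnb3 encodes the membrane ligand ephrin-B3, Sstr1 a somatostatin receptor, Acnat1 an acyl-CoA amino acid acyltransferase, Cyp46a1 the cholesterol 24-hydroxylase and Ucn2 the peptide urocortin 2. Efnb3 averaged 0.207 in rosoxacin, 0.143 in dexamethasone, 0.0607 in WTCPM and 0.109 FPKM in control mice, the same order as Apold1. Efnb3 was chosen among the 978 genes for its likeness to Apold1 in these mice, so the shared order is no further finding. Over the 12 mice outside the rosoxacin group, which also entered the choice, r was 0.69 for Efnb3 and 0.72 for Acnat1, but 0.21 for Ucn2.

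The genes that ran most like Prox1 were Pclo (r = 0.83), a presynaptic scaffold, Grin3a (0.83), a subunit of NMDA receptors, Olfr172 (0.81), an olfactory receptor, and Pde1c (0.81), a phosphodiesterase. Control 1 was the lowest control mouse for each of these, as for Prox1. Pclo had 0.163 FPKM in control 1 against 0.352 to 0.681 in the other controls, and Pde1c 0.0348 against 0.215 to 0.352. Without control 1, r over 15 mice was between 0.51 for Pde1c and 0.68 for Pclo. These likenesses are descriptions over mice that share groups and library scaling.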

How the data were processed

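Per the labels' protocols, TRIzol was used to extract lung RNA of 16 mice, and an Illumina instrument gave paired reads. Per the submitters' processing notes, the build was mm10 and the tools included StringTie 2.1.5, HISAT2 2.2.1 and SAMtools 1.12, with settings not stated. The authors deposited FPKM values for 186512 transcripts in 32 libraries, and the 32 deposited single-library files hold the same values. Read totals are unknown, so no counting interval is given.

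Transcripts were summed per gene and both lanes of a mouse averaged. Symbols came from GENCODE M21 (25424 of 26305 Ensembl genes matched). The test was limma 3.58.1 (R 4.3.3) on log2(FPKM + 0.1) over 4 groups with no covariate, a mean-dependent prior and Benjamini-Hochberg adjustment over 2749 genes with a mean of at least 0.1 FPKM. Folds on this scale understate the change of low genes. The fit was tested on simulated data. Labels name separate mice, but not how they were housed or processed, so p-values measure the spread between these mice.

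Members and gene lists were chosen with earlier results of these data known. Named genes are the members, up to 3 tested genes of each list with the highest mean, and the 5 genes most correlated with each member, of which 1 is not reported here. Alternatives were a pseudocount of 1, no filter, TPM and median-of-ratios scaling, each lane alone, the replicate number as a block, the library number as a covariate, and each mouse left out.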

Additional observations from a re-analysis of the deposited data

Results flagged for a closer look

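Neither Apold1 nor Prox1, nor the ratio between them, had a mouse set apart within its group by the gap to its nearest neighbour. Over the members, their ratio and the 15 list genes that entered the fit, 71 groups of 4 mice were checked in this way. Of these, 8 had such a mouse. The cutoff is set to flag about 1 in 20 groups of independent, normally distributed values. These genes share the same mice and some lie near 0, so no excess is read from the 8. In the rosoxacin group the mouse set apart was the highest, at 0.489 FPKM for Apol7a, 1.37 FPKM for Cxcr2 and 0.647 FPKM for Foxc1. In the dexamethasone group it was the lowest, at 0.213 FPKM for Angpt4 and 0.110 FPKM for Arc. In the WTCPM group it was the lowest for Apol7a, at 0.130 FPKM, and the only mouse above 0 for Itln1, at 0.0584 FPKM, and for Lep, at 0.0471 FPKM. A single mouse above 0 is flagged whatever its level, so the flags of Itln1 and Lep were fixed in advance.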

How the results depend on the processing

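As deposited, limma called 15 genes for rosoxacin against WTCPM, 91 for rosoxacin against control, 0 for dexamethasone against WTCPM, 1 for dexamethasone against control and 0 for WTCPM against control. Without rosoxacin mice in the comparison, Apold1 and Prox1 did not pass under any setting, with adjusted p-values of 0.624 or more. With a pseudocount of 1 the counts were 21 for rosoxacin against control, 1 for dexamethasone against WTCPM and 1 for WTCPM against control, and the Apold1 difference was 0.52 for rosoxacin against WTCPM and 0.38 against control. With no filter (11799 genes) they were 5 for rosoxacin against WTCPM, 7 for rosoxacin against control, 2 for dexamethasone against control and 2 for WTCPM against control. In TPM they were 260 (3 higher, 257 lower), 263 (7 higher, 256 lower), 2 and 2 in the same order. The TPM differences were 0.60 and 0.36 for Apold1 in rosoxacin against WTCPM and control, and -0.59 for Prox1 in rosoxacin against WTCPM. Median-of-ratios scaling gave 15 calls for rosoxacin against WTCPM (11 higher, 4 lower, beside 3 and 12 as deposited), 47 against control, 0 for dexamethasone against control and an Apold1 difference of 1.26 for rosoxacin against WTCPM. Lane 1 alone gave 2, 8, 0 and 1 calls for rosoxacin against WTCPM, rosoxacin against control, dexamethasone against control and WTCPM against control, and lane 2 alone gave 15 for rosoxacin against control and 2 for dexamethasone against control. The library number as a covariate left 3 calls for rosoxacin against WTCPM and 0 against control, and put Prox1 at -0.57 and -0.31 there. Deviations from the group mean correlated at r -0.156 to 0.304 (median 0.027) over 24 pairs of same-numbered mice. Over 72 other pairs from different groups r was -0.195 to 0.162 (median 0.003). Of 16 mice, 7 were closest to a mouse of their own number. These values do not settle whether the numbers pair the mice. With the replicate block the calls were 15 and 85 for rosoxacin, 0 and 0 for dexamethasone and 1 for WTCPM against control. Leaving out 1 mouse gave 2 (without WTCPM 4) to 32 (without control 1) calls for rosoxacin against WTCPM, 11 (without rosoxacin 3, and without control 1) to 123 (without dexamethasone 4) for rosoxacin against control, 0 to 3 for dexamethasone against control, 0 to 1 for WTCPM against control and 0 for dexamethasone against WTCPM. Apold1 was then at least 0.88 for rosoxacin against WTCPM, and Prox1 in dexamethasone against control from -0.065 (without control 1) to 0.41. The cause of these changes was not tested. Values near 0.1 FPKM rest on few fragments, which limits what can be seen for genes below Prox1.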
